A study of Mus musculus with 15 samples.

Results

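The transcripts of 9 adhesion molecules of the tumor cell surface were followed through 5 lines of the mouse Lewis lung carcinoma: Selp, Cd44, Icam1, Vcam1, Alcam, Mcam, F11r, L1cam and Ncam1. They are P-selectin, a hyaluronan receptor and 7 members of the immunoglobulin superfamily, and all 9 symbols were found among the 35880 gene symbols of the table. The 9 genes were selected with measured values of these 15 samples known, so their differences between lines are given as a description, without p-values. The parental line, labelled LL2/Luc2 and called LL2 WT here, was compared with KEAP1 KO #1, #2 and #3, in which the gene of KEAP1, the protein that marks NRF2 for degradation, was knocked out by CRISPR, and with NRF2 KO, in which the gene of the transcription factor NRF2 was knocked out. Each knockout line grew from a single cell, so a value that only 1 clone shows cannot be told apart from a property of that clone, and NRF2 KO is 1 clone. All lines were cultured alike, with no other treatment, and 3 samples of each were sequenced after selection of mRNA; the series calls them biologic replicates.

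Leukocytes leave the blood in steps. Selectins on the vessel wall and on platelets catch them through sialylated and fucosylated sugars on carriers such as PSGL-1, and immunoglobulin-type molecules such as ICAM-1 and VCAM-1 then hold them through the integrins LFA-1 and VLA-4. P-selectin is known from the storage granules of platelets and endothelial cells, while ICAM-1 and VCAM-1 are classical targets of inflammatory cytokines and NF-kB. CD44 binds hyaluronan, ALCAM binds CD6 on T cells, MCAM (CD146) and F11R (JAM-A) sit at cell contacts, and L1CAM and NCAM1 are best known from neurons and recur in tumors.

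Values are CPM, counts scaled so that every sample has the same total, with the SD over n = 3 samples. The samples hold no read numbers and the study's methods give only an average depth. The depth of each sample is therefore unknown, and values near 0.1 CPM rest on few reads. Differences are log2 fold changes of log2(CPM + 0.1), each with the standard error (SE) of a limma fit over the 14652 genes whose CPM added up to 3 or more. A call required an absolute log2 fold change above 1 and a Benjamini-Hochberg adjusted p below 0.05. All 9 members passed the filter, Icam1 only narrowly, and a member that passes through the lines where it is high had to differ. The labels were checked on their targets: Nqo1, a classical NRF2 target, had a mean of 30.3 ± 5.48 CPM in LL2 WT, of 276 to 488 CPM among the KEAP1 KO clones and of 9.82 ± 1.21 CPM in NRF2 KO, and Keap1 had a mean of 23.0 CPM in LL2 WT, of 11.8 in KEAP1 KO #1 and of 5.53 and 5.58 in the other KEAP1 KO clones.

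Selp stood at the edge of detection in LL2 WT and was abundant in all KEAP1 KO clones. The 3 LL2 WT samples held 0.272, 0.220 and 0.0949 CPM. The KEAP1 KO #1 samples held 11.8, 19.7 and 25.0 CPM, those of KEAP1 KO #2 49.9, 50.6 and 62.7 CPM, and those of KEAP1 KO #3 78.9, 86.2 and 89.4 CPM. NRF2 KO held 0.127, 0.598 and 0.290 CPM. The 9 KEAP1 KO samples lay above all 6 others, and the clones did not overlap with each other either, in the order #3, #2, #1, while NRF2 KO overlapped with LL2 WT. Relative to LL2 WT the log2 fold change of Selp was 5.98 for KEAP1 KO #1, 7.57 in #2 and 8.22 in #3 (SE 0.37 each), and 0.47 in NRF2 KO. The value of NRF2 KO turned on single samples, being 0.06 without its replicate 2, 0.87 without its replicate 1 and 0.20 without LL2 WT replicate 3. Because LL2 WT lay so near 0, these sizes depend on the added constant: with 1 CPM added the KEAP1 KO values were 3.99, 5.53 and 6.17, and with 0.01 CPM 6.57, 8.16 and 8.80. In such bulk samples, more cells that express a gene and more RNA per cell cannot be told apart.

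**Figure D1:**
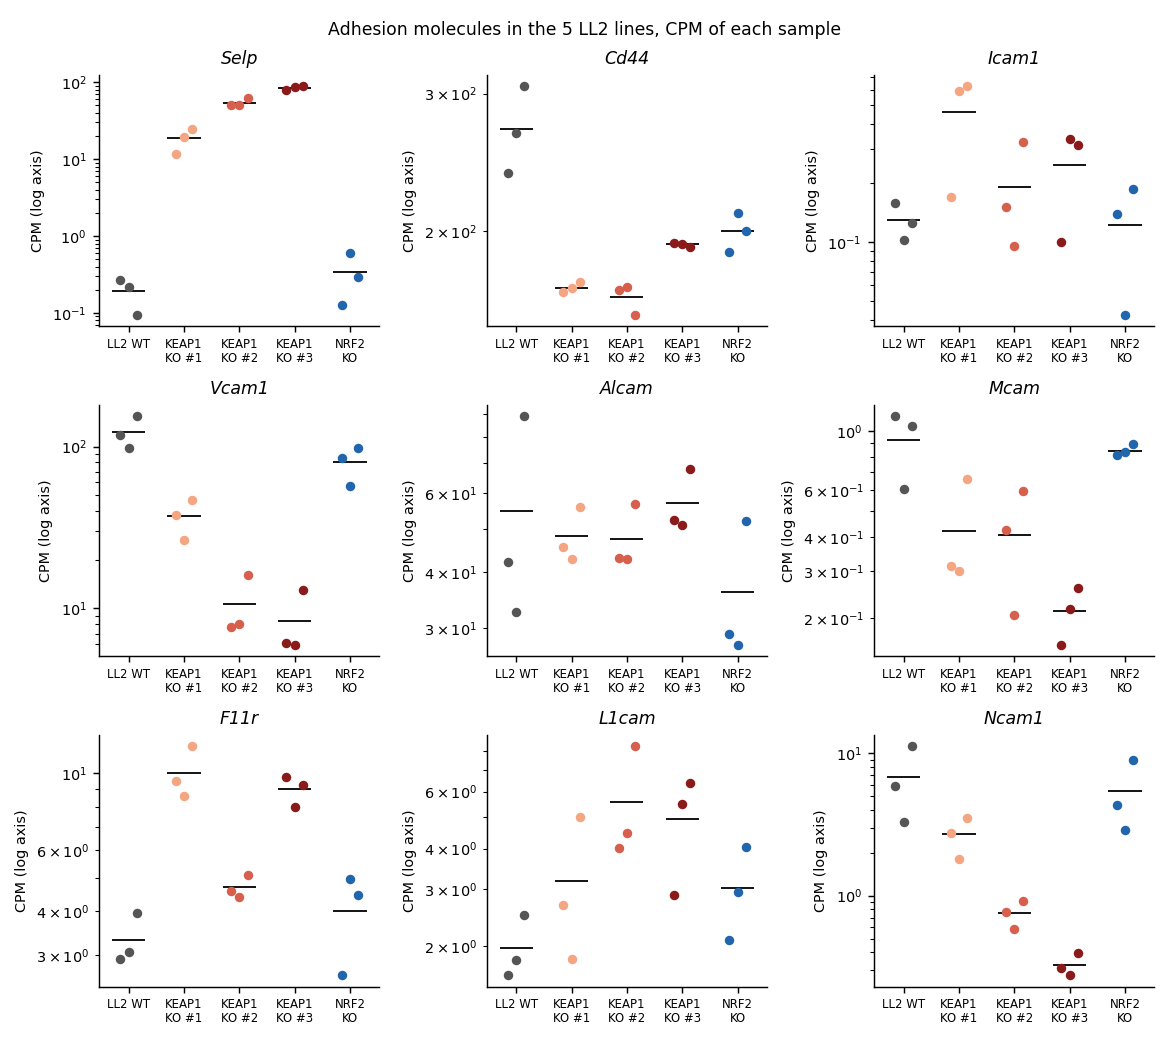
CPM of the 9 adhesion molecules in each of the 15 samples, on log axes that differ between panels. Points are samples, colors are lines and black bars are the means of 3 samples. Selp lay between 11.8 and 89.4 CPM in the KEAP1 KO samples and at 0.598 CPM or less in the others, while Vcam1 and Ncam1 were lowest in KEAP1 KO #2 and #3.

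Selp lies on chromosome 1 of GRCm38, from 164115264 to 164150026 on the forward strand, near Sele, which ends 57.6 kb before it. E-selectin, the product of Sele, is an endothelial selectin. Sele is not among the 9 members. In CPM, the Sele samples stood at 3.96, 2.91 and 3.45 for LL2 WT, at 2.43, 4.73 and 8.54 for KEAP1 KO #1, at 17.2, 16.1 and 23.8 for #2, at 10.7, 10.6 and 9.74 for #3, and at 2.07, 2.91 and 4.14 for NRF2 KO. All samples of KEAP1 KO #2 and #3 lay above all other lines, and those of #1 spread across the range of LL2 WT. By limma, Sele rose by a log2 fold change of 2.42 in KEAP1 KO #2 (SE 0.36, adjusted p = 0.000257) and 1.57 in #3 (adjusted p = 0.00506), and its values in #1 (0.43) and NRF2 KO (-0.22) were not called.

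Within 500 kb of Selp, a window chosen after these values were seen, 9 protein-coding genes other than selectin genes were tested. Among these 9, Atp1b1, an ion pump subunit, was called in KEAP1 KO #1 (1.76), though not in a fit of only the lines compared, and the other 8 lay between -0.73 and 0.65 in all 4 comparisons with LL2 WT. Slc19a2 and Mettl18, 2 of these neighbors, had 0.60 and 0.35 in KEAP1 KO #2.

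**Figure D2:**
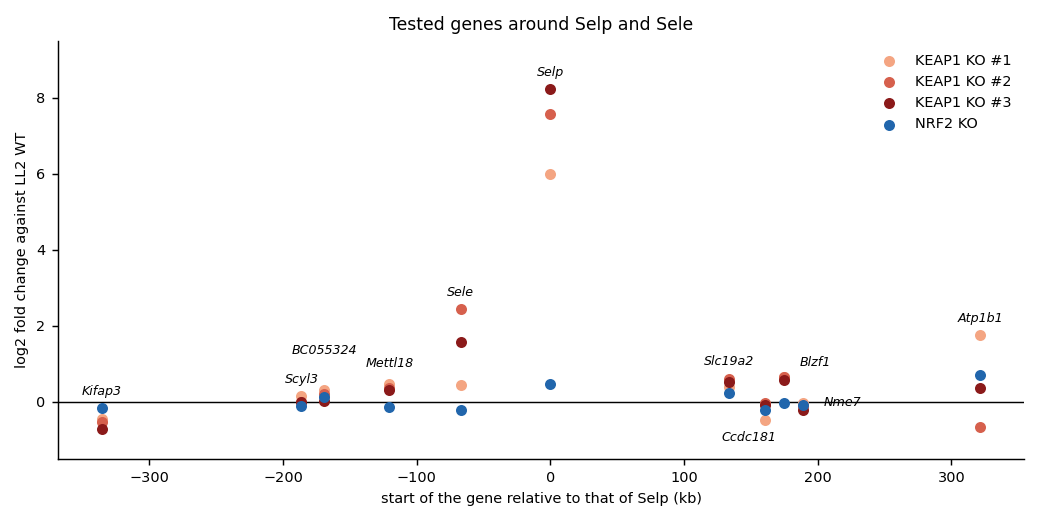
Log2 fold change against LL2 WT of Selp, Sele and 9 tested protein-coding neighbors, by the distance of their start from that of Selp in kb. Each point is 1 knockout line. Sele and Selp stand between neighbors near 0, apart from Atp1b1 in KEAP1 KO #1.

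The 250 bases before the annotated starts of Selp and Sele are shown from RefSeq on GRCm38.p6, 5′ to 3′ on the forward strand, because these genes differed while most of their neighbors did not pass the test. Selp covers chr1:164115014-164115263 and Sele chr1:164047984-164048233. Capitals mark the core letters of AP-1 sites and, in Sele, the TATA box.

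Selp: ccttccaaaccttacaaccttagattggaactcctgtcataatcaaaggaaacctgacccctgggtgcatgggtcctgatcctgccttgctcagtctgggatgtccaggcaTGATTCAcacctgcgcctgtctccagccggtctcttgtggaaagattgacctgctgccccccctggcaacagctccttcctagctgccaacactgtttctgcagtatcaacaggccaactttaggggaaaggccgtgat

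Sele: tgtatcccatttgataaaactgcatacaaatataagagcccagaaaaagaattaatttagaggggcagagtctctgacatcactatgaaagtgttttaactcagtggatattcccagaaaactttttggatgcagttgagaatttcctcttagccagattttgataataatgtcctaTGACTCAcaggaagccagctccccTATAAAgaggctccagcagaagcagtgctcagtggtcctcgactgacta

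Selp holds 1 stretch of the AP-1 core letters, TGANTCA, and Sele holds 1 of these and a TATA box 49 bases before its start. Promoter windows of 300 bases, reaching 50 bases past the start, were on hand for 7 of the 9 members (8 windows): Alcam, Cd44, F11r, Icam1, L1cam, Mcam and Selp. The core letters of the antioxidant response element that NRF2 binds, TGACNNNGC, were in 0 of the 8 windows, against 12.4% of 32851 windows of all genes, and the NF-kB consensus was in 0 of 8, against 4.51%. The AP-1 core, searched after the values were seen, was in the windows of F11r and Selp and in 7.81% of all windows, and TATAAA was in that of Icam1 and in 13.6% of all. These are matches of letters on both strands and no evidence of binding.

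Cd44 had the highest CPM of the 9 in LL2 WT, on a scale that is not corrected for transcript length. The LL2 WT samples held 238, 267 and 307 CPM, those of KEAP1 KO #1 167, 169 and 172 CPM, of #2 168, 170 and 156 CPM, of #3 193, 193 and 191 CPM, and of NRF2 KO 188, 211 and 200 CPM. Every sample of the 4 knockout lines lay below the lowest of LL2 WT. Its log2 fold changes were -0.67, -0.71 and -0.48 in KEAP1 KO #1 to #3 and -0.43 in NRF2 KO (SE 0.088), all short of the threshold of size, so Cd44 was lower in the NRF2 KO line as well as in the KEAP1 KO clones.

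Among the ligands of leukocyte integrins, Vcam1 differed most. In CPM, its samples stood at 118, 98.0 and 154 for LL2 WT and at 85.0, 57.4 and 97.5 for NRF2 KO. They stood at 37.7, 26.5 and 47.0 for KEAP1 KO #1, at 7.71, 7.97 and 16.1 for #2, and at 6.09, 5.95 and 13.0 for #3. The LL2 WT mean of 123 ± 28.5 CPM was 3.33 times that of KEAP1 KO #1, 11.6 times that of #2 and 14.8 times that of #3. The order was LL2 WT, NRF2 KO, KEAP1 KO #1 and then #2 and #3, whose samples overlapped, while all other neighbors in this order did not. The log2 fold changes were -1.75, -3.59 and -3.94 in the KEAP1 KO clones (SE 0.36) and -0.63 in NRF2 KO.

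Icam1, whose product holds LFA-1, was close to absent in all lines. Its LL2 WT samples held 0.158, 0.103 and 0.125 CPM and its highest sample, in KEAP1 KO #1, held 0.628 CPM. In KEAP1 KO #1 the 3 samples (0.170, 0.592 and 0.628 CPM) lay above LL2 WT, with a log2 fold change of 1.18 (SE 0.50) that was not called, except without replicate 1 of this clone (1.64). The 3 samples each of KEAP1 KO #2, #3 and NRF2 KO overlapped with LL2 WT, with log2 fold changes of 0.27, 0.53 and -0.09. The value for KEAP1 KO #2 was -0.04 without its replicate 3, and that for NRF2 KO was 0.20 without its replicate 2. Of the 31-base stretches of the Icam1 transcripts, 14.8% also occur in transcripts of other genes, so a part of these few reads may not be its own; the share was at most 4.30% for the other members except Selp.

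For Selp that share was 12.5%, with 3 RNA genes that do not code for proteins, Gm16548, Gm16587 and Gm45639. None of the 3 symbols is a row of the table. Gm16587 overlaps Selp on the opposite strand, and since strand use is not given in the sources used here, reads from both could not be told apart. Sele shared 0% of its stretches with other genes.

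The molecules of cell contacts differed among themselves. F11r, the gene of JAM-A, lies on chromosome 1 from 171437535 to 171464603, far from the selectins. In CPM, its samples stood at 2.92, 3.05 and 3.97 for LL2 WT, at 9.45, 8.61 and 11.9 for KEAP1 KO #1, at 4.57, 4.40 and 5.10 for #2, at 9.73, 7.99 and 9.25 for #3, and at 2.63, 4.96 and 4.45 for NRF2 KO. The 9 KEAP1 KO samples lay above LL2 WT, but those of #2 overlapped with NRF2 KO. The log2 fold changes were 1.56, 0.50 and 1.42 (SE 0.22) and 0.23 in NRF2 KO, so the clone with the lowest F11r, #2, was not the clone with the lowest Selp.

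Mcam, the gene of CD146, stood at 1.14, 0.605 and 1.04 CPM for LL2 WT and at 0.812, 0.831 and 0.890 CPM for NRF2 KO, which overlapped. KEAP1 KO #1 held 0.312, 0.298 and 0.659 CPM, #2 held 0.425, 0.204 and 0.595 CPM, and #3 held 0.158, 0.217 and 0.259 CPM. The log2 fold changes were -0.999, -1.05 and -1.69 (SE 0.37) and -0.08 in NRF2 KO. With 1 CPM added they shrank to -0.44, -0.45 and -0.66 in the clones, since all these levels are low, and in NRF2 KO the value was 0.07 without LL2 WT replicate 1. The threshold for a call was met in KEAP1 KO #2 and #3, but in #2 it was met in only 5 of 15 alternatives. Without LL2 WT replicate 1 or 3 the value of #2 was -0.90 and -0.96, and without its own replicate 1 or 2 it was -1.12 and -0.72, none called. In #3 the call held in 13 of 15, the exceptions being 0.5 and 1 CPM added. The value of #1 was called without LL2 WT replicate 2 (-1.25) or its own replicate 3 (-1.301).

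Alcam, whose product is the ligand of CD6, showed no separation of the lines. Its mean in CPM was 54.7 ± 30.2 for LL2 WT, 48.0 ± 6.97 for KEAP1 KO #1, 47.5 ± 8.07 for #2, 57.0 ± 9.58 for #3 and 36.2 ± 13.7 for NRF2 KO, and every line overlapped with its neighbors in this order of levels. LL2 WT held 42.2, 32.6 and 89.1 CPM, and 1 sample, replicate 3, set its spread. The log2 fold changes were -0.06, -0.08, 0.18 and -0.52 (SE 0.32), and without LL2 WT replicate 3 they were 0.36, 0.34, 0.61 and -0.10. Replicate 3 was the highest sample in all 5 lines for Alcam, Vcam1, L1cam and Ncam1; the part of this in the differences was not tested.

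The molecules best known from neurons differed in opposite directions. In CPM, the L1cam samples stood at 1.62, 1.80 and 2.49 for LL2 WT, at 2.68, 1.82 and 5.00 for KEAP1 KO #1, at 4.01, 4.46 and 8.28 for #2, at 2.88, 5.51 and 6.40 for #3, and at 2.08, 2.93 and 4.03 for NRF2 KO. KEAP1 KO #2 and #3 lay above LL2 WT, with log2 fold changes of 1.40 and 1.23 (SE 0.41), and KEAP1 KO #1 and NRF2 KO overlapped with it, with 0.56 each. Without its replicate 3 the value of KEAP1 KO #1 was 0.18 and without its replicate 2 it was 0.88, and that of NRF2 KO was 0.33 without its replicate 3. With 1 CPM added the value of #3 was 0.95, under the threshold of size. The call in #3 held in 9 of 16 alternatives, being lost without LL2 WT replicate 1 (1.1035) or 2 (1.18) and without its own replicate 2 (1.11) or 3 (1.003). The call in #2 held in 14 of 16, being lost without LL2 WT replicate 1 (1.28) and without its own replicate 3 (1.08).

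In CPM, the Ncam1 samples stood at 5.88, 3.302 and 11.1 for LL2 WT and at 4.31, 2.91 and 8.92 for NRF2 KO. They stood at 2.77, 1.81 and 3.49 for KEAP1 KO #1, at 0.763, 0.587 and 0.922 for #2, and at 0.309, 0.277 and 0.397 for #3. The LL2 WT mean was 8.94 times that of KEAP1 KO #2 and 20.7 times that of #3, and the samples of these clones overlapped neither with LL2 WT nor with each other. The log2 fold changes were -1.18, -2.85 and -3.85 (SE 0.45), with KEAP1 KO #1 overlapping with LL2 WT, and -0.31 in NRF2 KO. The value of KEAP1 KO #1 was -0.74 without LL2 WT replicate 3, and that of NRF2 KO was then 0.13. Without LL2 WT replicate 2 the value of #1 was -1.60 and called. With 1 CPM added, those of #2 and #3 were -2.02 and -2.42.

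**Figure D3:**
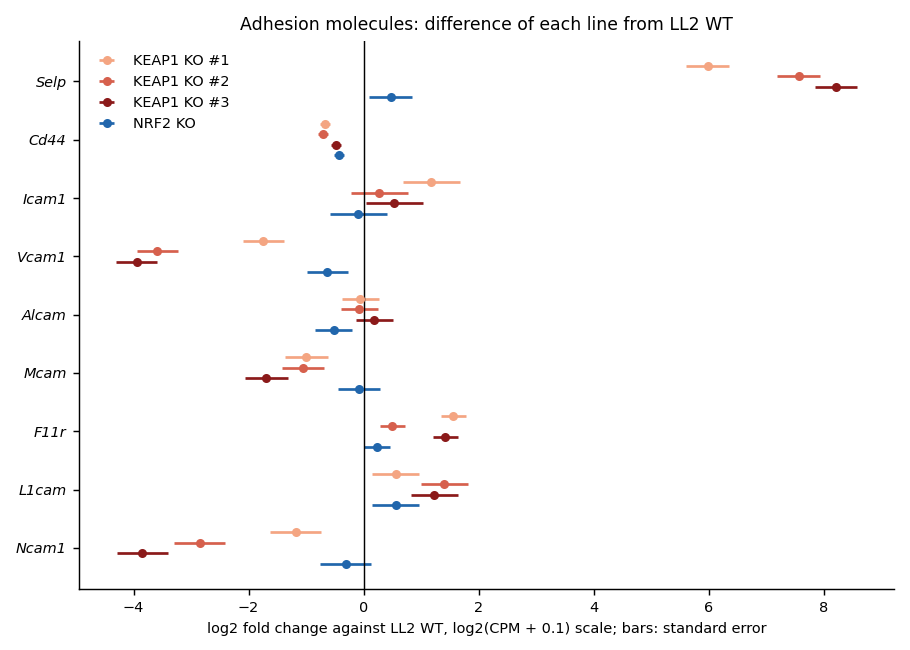
Log2 fold change against LL2 WT of the 9 adhesion molecules in the 4 knockout lines, on the log2(CPM + 0.1) scale, with bars for the standard error. Selp reached 8.22 in KEAP1 KO #3, Vcam1 and Ncam1 reached -3.94 and -3.85 there, and the NRF2 KO points lay between -0.63 and 0.56.

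In KEAP1 KO #1, 3 of the 9 members were called (Selp and F11r higher, Vcam1 lower), where 8.54% of all tested genes were called. In KEAP1 KO #2, 5 were called (Selp and L1cam higher, Vcam1, Mcam and Ncam1 lower), beside 13.7% of all genes, and in #3 6 were called (F11r in addition), beside 13.4%. In NRF2 KO 0 members were called, beside 0.464%. Since the members were chosen by such values, nothing is read from these counts. The samples of 5, 7 and 7 members in KEAP1 KO #1, #2 and #3 did not overlap with LL2 WT, where this held for 37.0%, 42.0% and 40.0% of all genes, and in NRF2 KO it held for 2, Vcam1 and Cd44, beside 13.2%. The members' median log2 fold changes were -0.06, -0.08, 0.18 and -0.09, beside 0.11, 0.03, 0.02 and 0.04 for all genes.

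The KEAP1 KO clones together were also set against NRF2 KO, which is a clone as they are. Selp averaged 6.78 higher on the log2 scale (SE 0.30), Vcam1 had -2.46, Ncam1 -2.32 and Mcam -1.17, and these 4 were called, beside 9.94% of all genes. F11r had 0.93, Icam1 0.75, Alcam 0.54, L1cam 0.50 and Cd44 -0.19, none of them called. Without NRF2 KO replicate 3 Mcam had -1.13 and was not called, and F11r was called without NRF2 KO replicate 2 (1.104) or 3 (1.03). The 9 KEAP1 KO samples did not overlap with NRF2 KO for 3 members, Selp, Vcam1 and Mcam, where 16.5% of all genes did not. This comparison shares the KEAP1 KO samples with those against LL2 WT. Its SE and calls rest on the spread of samples within lines, and the spread between clones is not part of them.

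Genes whose levels followed those of a member most closely were sought by the root mean square difference of centered log2 values over the 15 samples, among 11675 genes with a mean of at least 1 CPM. For Selp they were Krt76 (0.851), Cyp1a1 (0.898) and Il7 (0.901), all near 0 in LL2 WT and NRF2 KO. In KEAP1 KO #1, #2 and #3 the means of Krt76 were 10.7, 55.8 and 30.9 CPM and those of Cyp1a1 4.16, 7.26 and 6.48 CPM. Both were highest in #2, unlike Selp. Il7 had a mean of 0.0470 CPM in LL2 WT and of 2.97, 12.0 and 13.6 in these clones, the same order as Selp. For Vcam1 they were Clmp (0.282), an adhesion molecule of the same superfamily, Clec9a (0.286) and Gcnt4 (0.322). For Ncam1, Vcam1 itself was the third nearest (0.439), after Copz2 (0.414) and Rnf122 (0.436). For F11r they were Fgf7 (0.305), Klf6 (0.322) and Clock (0.343), and for L1cam Dagla (0.300), AI661453 (0.342) and Arap1 (0.348).

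A wider set of 117 genes of adhesion gave the surroundings, and 90 of them were tested. In KEAP1 KO #1, 7 were called (3 higher, 4 lower), in #2 24 (11 higher, 13 lower), in #3 20 (9 higher, 11 lower), and in NRF2 KO 0. These are 7.78%, 26.7% and 22.2% of the 90 for the KEAP1 KO clones, beside 8.54%, 13.7% and 13.4% of all genes, and the counts of the single groups below are to be set beside the same shares. The lists were chosen with earlier results of these data known, so nothing is read from the counts of this set or of its groups. In NRF2 KO 13 of the 90 (14.4%) had an unadjusted p under 0.05, beside 11.2% of all genes. Their median log2 fold changes were 0.12, -0.01, -0.01 and 0.02. Against NRF2 KO, 14 (15.6%) were called over the KEAP1 KO clones (9 higher, 5 lower), beside 9.94% of all genes. Adjusted p-values below are from limma with Benjamini-Hochberg adjustment over all 14652 genes.

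Among the carriers of selectin ligands, Podxl, whose product podocalyxin is a sialylated carrier protein, had a mean of 6.77 ± 0.446 CPM in LL2 WT and rose in KEAP1 KO #2 (1.43, adjusted p = 9.94e-06) and #3 (1.60, adjusted p = 3.26e-06). In #1 Podxl had 0.93, not called. Cd34, another sialylated carrier, fell in KEAP1 KO #1 (-1.16, adjusted p = 0.00160) and #2 (-1.82, adjusted p = 3.15e-05), while #3 averaged 28.3 ± 0.213 CPM against 19.0 ± 5.10 CPM in LL2 WT (0.60, not called). Without LL2 WT replicate 3 the value of Cd34 in KEAP1 KO #1 was -0.97 and no longer called. Selplg, the gene of PSGL-1, the main partner of P-selectin, had a mean of 0.441 CPM in LL2 WT and of at most 0.720 in the other lines, and was not called in any; it was named after its values were seen.

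Of 13 tested genes that build selectin ligand sugars, 0, 2 and 2 were called in the KEAP1 KO clones. Gcnt1, an enzyme that branches O-linked sugars, rose in KEAP1 KO #2 (1.18, adjusted p = 1.03e-05) and had 0.86 in #3. Chst2, a sulfotransferase, fell in #3 (-2.12, adjusted p = 8.77e-07) and had 0.22 in #1. In #2 it had -0.999, just short of the threshold of size, and it stayed uncalled there in 10 of 16 alternatives. B3gnt3, which extends these sugars, fell in #2 (-2.50, adjusted p = 0.00410) and #3 (-1.67, adjusted p = 0.0349), and had -1.42 in #1, not called. The B3gnt3 call in #3 was lost in 6 of 16 alternatives. Among them were those without LL2 WT replicate 1 (-1.67) or 3 (-1.38) and without KEAP1 KO #3 replicate 1 (-1.29) or 2 (-1.52).

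Of 18 other tested immunoglobulin-type molecules, 1, 4 and 6 were called. Nrcam, a relative of L1cam, had a mean of 0.0352 CPM in LL2 WT and of 0.466 ± 0.198, 2.81 ± 0.601 and 1.86 ± 0.0897 in KEAP1 KO #1, #2 and #3. It rose in all 3 clones (2.02, 4.42 and 3.87, adjusted p = 0.00116, 1.16e-06 and 3.41e-06), the first of these not being called with 0.5 or 1 CPM added (0.83 and 0.49). As the LL2 WT level was under the added constant, the sizes in #2 and #3 depend on it too, and with 1 CPM added they were 1.87 and 1.46, still called. Jam3 and Cxadr, relatives of F11r at cell contacts, fell in KEAP1 KO #3 (-1.61 and -1.60, adjusted p = 1.62e-05 and 0.000182), where F11r was high, and were not called in the other lines. In KEAP1 KO #1, where the mean of F11r was highest, Jam3 had -0.03 and Cxadr 0.21. Nectin2 fell in #2 (-1.35, adjusted p = 0.0370) and #3 (-1.61, adjusted p = 0.0167), but these calls held in 10 and 12 of 16 alternatives. In #1 Nectin2 had -0.97, not called. Without LL2 WT replicate 1 or 3 the Nectin2 values were -1.30 and -1.06 in #2 and -1.55 and -1.32 in #3, without KEAP1 KO #2 replicate 1 or 2 -1.18 and -1.198, and without KEAP1 KO #3 replicate 1 or 2 -1.55 and -1.39, none called.

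**Figure D4:**
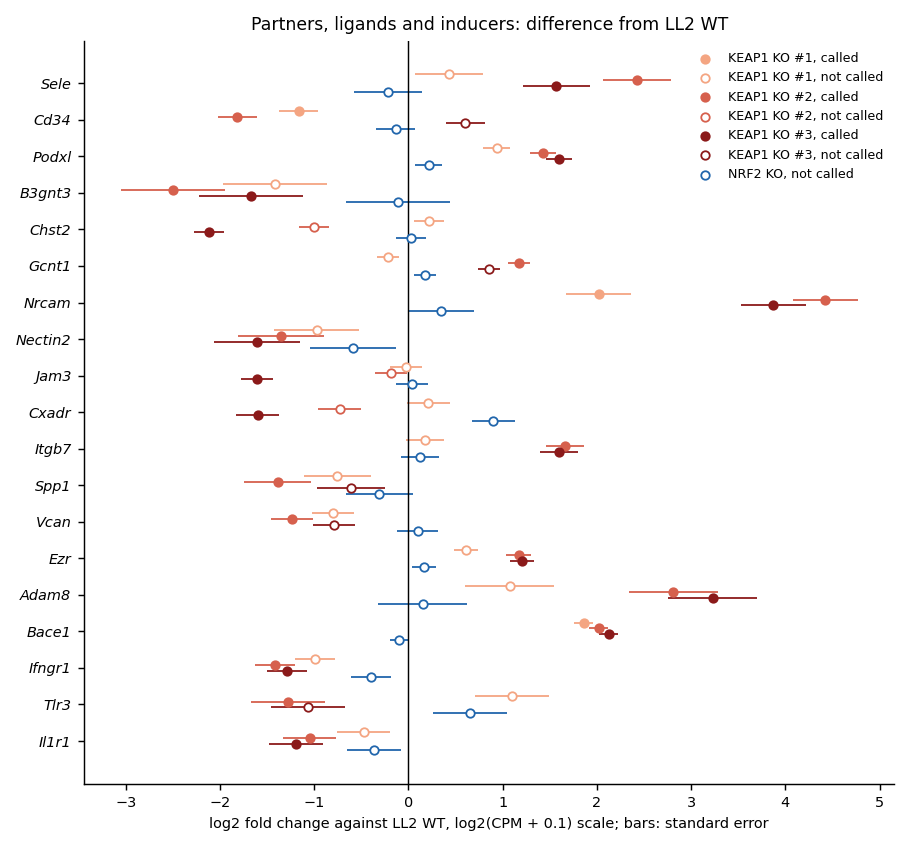
Log2 fold change against LL2 WT of 19 genes from the wider set in the 4 knockout lines, with bars for the standard error. Filled points are called and open points are not; no NRF2 KO point is called, and Nrcam, Adam8 and Bace1 hold the highest values in KEAP1 KO #3.

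Of 8 tested counter-receptors of the members, 1, 2 and 2 were called, with 1 lower in each clone and 1 higher in #2 and #3. The lower call was the same gene in all 3 clones, and its mean was under the 1 CPM needed to be named. Itgb7, an integrin chain that pairs with the alpha 4 chain to bind VCAM-1, averaged 125 ± 32.2 CPM in LL2 WT and rose in KEAP1 KO #2 (1.66, adjusted p = 5.39e-05) and #3 (1.60, adjusted p = 6.69e-05). The gene of its alpha 4 partner, Itga4, did not pass the filter.

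Of 15 tested partners of CD44 and hyaluronan, 1, 6 and 2 were called. Ezr, whose product ezrin links CD44 to actin, rose in KEAP1 KO #2 (1.17, adjusted p = 2.42e-05) and #3 (1.204, adjusted p = 1.70e-05). Vcan, a hyaluronan-binding proteoglycan, and Spp1, the gene of the CD44 ligand osteopontin, fell in #2 (-1.23 and -1.39, adjusted p = 0.00109 and 0.01002). Has2, a hyaluronan synthase named after its values were seen, had a mean of 0.951 ± 0.316 CPM in LL2 WT, of 0.752 ± 0.145 in NRF2 KO and of under 0.1 in each KEAP1 KO clone, and fell in all 3 (-2.91, -2.82 and -2.95, adjusted p = 0.000121, 8.15e-05 and 5.07e-05). The Has2 sizes depend on the added constant, being -0.899, -0.88 and -0.91 with 1 CPM added, under the threshold of size, and -4.50, -4.28 and -4.52 with 0.01 CPM.

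Of 8 tested genes of shedding and polysialylation, 1, 2 and 2 were called, all higher. Bace1, a protease that cleaves membrane proteins, had a mean of 22.7 ± 2.37 CPM in LL2 WT, of 82.8 ± 9.80, 92.2 ± 3.81 and 99.1 ± 3.47 in KEAP1 KO #1, #2 and #3, and of 21.2 ± 1.00 in NRF2 KO. It rose in all 3 clones (1.86, 2.02 and 2.12, adjusted p = 9.76e-08, 1.98e-08 and 1.26e-08). Adam8, a metalloprotease, rose in #2 (2.81, adjusted p = 0.000659) and #3 (3.23, adjusted p = 0.000224), and had 1.07 in #1, not called.

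Of 20 tested cytokine receptors and factors of adhesion gene induction, 1, 4 and 2 were called, all lower. Ifngr1, a chain of the interferon gamma receptor, fell in KEAP1 KO #2 (-1.41, adjusted p = 0.000281) and #3 (-1.29, adjusted p = 0.000555) and had -0.99 in #1. Il1r1, the receptor of interleukin 1, fell in #2 (-1.05, adjusted p = 0.0136) and #3 (-1.19, adjusted p = 0.00668). Without LL2 WT replicate 3 the Il1r1 values were -0.73 and -0.87, and without KEAP1 KO #2 replicate 2 the value in #2 was -0.999, none called. Tlr3, a sensor of double-stranded RNA, fell in #2 (-1.28, adjusted p = 0.0249), a call lost in 6 of 16 alternatives, among them those without LL2 WT replicate 2 (-1.05) and without KEAP1 KO #2 replicate 1 (-0.94); it had 1.101 in #1.

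The markers of cells that usually carry these molecules were checked beside them. Of 8 endothelial markers, Emcn and Cldn5 were at 0 in all samples and Kdr, Tek and Tie1 averaged under 0.1 CPM in every line. Pecam1 was the 1 marker of this list with a mean of at least 1 CPM in LL2 WT, and it was not called in any line. Cdh5 and Vwf were called higher in KEAP1 KO #2 and #3: the mean of Cdh5 was 0.0227 CPM in LL2 WT, 0.819 in #2 and 1.25 in #3, and that of Vwf 0.269, 1.195 and 1.498. With 1 CPM added the log2 fold changes were 0.83 and 1.13 for Cdh5 and 0.79 and 0.95 for Vwf, and only that of Cdh5 in #3 was called. The sum of the list ran from 2.83 to 4.05 CPM in LL2 WT, from 3.43 to 5.93 in KEAP1 KO #1, from 6.20 to 8.17 in #2, from 6.49 to 8.35 in #3 and from 4.27 to 7.59 in NRF2 KO. Of 7 platelet and megakaryocyte markers, 0 were called in any line, and the granule gene Pf4 averaged at most 0.510 CPM. In each line 2 of the 7 averaged at least 1 CPM. Their list had a sum of 3.12 to 9.61 CPM in LL2 WT and of 2.89 to 5.58 in KEAP1 KO #1. It was 3.87 to 12.0 in #2, 4.26 to 20.2 in #3 and 3.68 to 6.99 in NRF2 KO.

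Of 7 leukocyte markers, Ptprc averaged at most 0.124 CPM, Cd68 was called higher and Lyz2 lower in KEAP1 KO #2 and #3, and the sum ran from 3.05 to 5.36 CPM in LL2 WT and up to 37.4 CPM in KEAP1 KO #3. Of 6 fibroblast markers, 1 was called higher in KEAP1 KO #1, 3 lower in #2 and 4 lower in #3, the clones with the lowest Vcam1 and Ncam1. These levels were low: 1 of the 6 averaged at least 1 CPM in LL2 WT. In #2 and #3, 4 and 3 of them were at 0.1 CPM or less in every sample. The sum of the list ran from 8.39 to 20.7 CPM in LL2 WT and from 5.56 to 14.2 in #1. It was 5.70 to 8.25 in #2, 2.44 to 4.32 in #3 and 5.92 to 10.7 in NRF2 KO. Of 6 neural markers, Tubb3 was called higher in #2 and #3, Syp lower in #3, and Rbfox3 was at 0 throughout. The Syp call (-1.09) held in 6 of 15 alternatives, being lost without LL2 WT replicate 2 (-0.96) or 3 (-1.11) and without KEAP1 KO #3 replicate 1 (-0.99) or 2 (-0.91). The label of a lung cancer line was met in part: Krt8 and Krt18 were abundant, while Epcam and Cdh1 averaged under 0.1 CPM and of the lung epithelial markers Scgb1a1 was at 0 and Nkx2-1 averaged under 0.1 CPM. The part of these markers in the differences of the adhesion molecules was not tested.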

How the data were processed

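The series holds 15 RNA-seq samples, 3 of each of 5 LL2 lines. Per the study's methods and the labels, mRNA libraries were pseudo-aligned with kallisto to GRCm38.p6 cDNA after bcl2fastq 1.9.0, while the submitters' processing notes name GRCm39; no coordinates of the files were used. The authors deposited CPM per gene symbol, already scaled, so the read depth of each sample is unknown and precision rests on the replicates. An entry without a symbol (at most 0.0491% of a sample) was left out.

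Here limma 3.58.1 in R 4.3.3 was run on log2(CPM + 0.1), with a mean per line, empirical Bayes with a trend and Benjamini-Hochberg adjustment over all 14652 genes whose CPM added up to 3 or more; the procedure was tested on simulated data. The members and the gene lists were chosen with earlier results of these data known. Of each list, up to 4 called genes with the largest absolute log2 fold change and a mean of at least 1 CPM are named. Positions are from GENCODE on GRCm38. Stretches of 31 bases were compared with all GENCODE transcripts. Python 3.11.15 and matplotlib 3.10.9 were used. No 2 samples were identical (highest rank correlation 0.995). The labels do not say whether replicates were separate cultures, so the tests measure only the spread between these samples. A gene of the lists is not reported here.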

Additional observations from a re-analysis of the deposited data

Results flagged for a closer look

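For 10 of the named genes of the wider adhesion set, the KEAP1 KO clones differed from each other in a limma test of clone against clone (Benjamini-Hochberg adjusted over all genes). The largest such difference of each gene is given as a log2 fold change. Genes of the set that were not named were left out here, and some of them were called between clones as well. The share of all genes called between clones is not given. KEAP1 KO #1 against #2 gave -1.997 for Sele (adjusted p = 0.00339), -1.40 for Gcnt1 (adjusted p = 1.76e-05), -2.40 for Nrcam (adjusted p = 0.000734), -1.49 for Itgb7 (adjusted p = 0.000515) and 2.38 for Tlr3 (adjusted p = 0.00198). KEAP1 KO #1 against #3 gave 2.34 for Chst2 (adjusted p = 2.93e-06), 1.58 for Jam3 (adjusted p = 0.000110), 1.81 for Cxadr (adjusted p = 0.000309) and -2.16 for Adam8 (adjusted p = 0.0101). KEAP1 KO #3 against #2 gave 2.42 for Cd34 (adjusted p = 3.63e-05). Each clone grew from 1 cell, and the cause of these differences was not tested.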

How the results depend on the processing

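The alternatives were 3 other added constants, 2 other filters, 2 other scalings, a fit of only the lines compared, a fit without the trend, a replicate block, and leaving out each sample. In KEAP1 KO #1, the 7 calls in the wider set became 2 with 1 CPM added, 3 with 0.5 CPM added, 3 with a filter of at least 1 CPM in 3 samples and 4 in a fit of only the lines compared. In KEAP1 KO #2, the 24 calls became 15 with 1 CPM added. The other counts of the whole wider set stayed within 1.5 times the value given. Among all genes, the 68 calls of NRF2 KO became 7 in a fit of only the lines compared, 179 with the replicate block, 44 with 1 CPM added and 29 to 87 without single samples. With 1 CPM added the all-gene counts fell from 1251 to 784 in KEAP1 KO #1, from 2006 to 1275 in #2, from 1967 to 1303 in #3 and from 1457 to 804 over the KEAP1 KO clones against NRF2 KO. The members, the genes named by the rule and 11 genes named after their values were seen were recomputed, and no called value among them changed direction. Leaving out single samples gave 5 to 10 calls in KEAP1 KO #1, 19 to 26 in #2, 15 to 22 in #3, 0 in NRF2 KO and 13 to 15 over the KEAP1 KO clones against NRF2 KO. Scaling by median ratios moved the all-gene median of KEAP1 KO #1 from 0.11 to 0.01, and the called genes there from 667 higher and 584 lower to 553 and 724; quantile normalization gave 605 and 751. The replicate numbers are shared between lines, and samples with the same number deviated together in part. Their median r was 0.276 over 30 pairs, against -0.192 over 60 pairs of different numbers. In every pair of lines the median r was positive for the same number, from 0.227 to 0.529, and negative for different numbers. The r of the same number were all above 0.1 in 2 of 10 pairs of lines. The main fit did not pair the samples by number, so its SE and calls do not take this shared part into account. With the replicate number as a block, 10, 24 and 23 genes of the wider set were called in KEAP1 KO #1, #2 and #3, 0 in NRF2 KO and 15 over the KEAP1 KO clones against NRF2 KO. Among all genes the block gave 1597, 2288 and 2270 calls in the KEAP1 KO clones and 1628 for them against NRF2 KO.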
